A study of Arabidopsis thaliana with 9 samples.

Results

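The loci described here are those whose probe set on the Affymetrix ATH1 array names a single gene with a symbol that starts with IQD or TRM and a digit. The rule found 30 of the 13350 loci measured under a name in Arabidopsis thaliana seedlings. They comprise 15 IQD loci, 14 TRM loci of the TON1 Recruiting Motif family, and TRM82, which shares only the letters of its symbol with the other TRM loci. Every locus is represented by 1 probe set. The gene table lists 66 such symbols, and the other 36 are not paired with a single-gene probe set and were not analysed here. The lowest number was 15 among both the IQD and the TRM loci analysed, so family values below describe higher-numbered members only. Transcript levels were compared among 3 genotypes with 3 arrays each. The jmj24 plants are mutant in the jumonji gene JMJ24 (AT1G09060) and came from a stock centre. The 35S::JMJ24 line carries JMJ24 under the 35S promoter, a viral promoter active in most plant cells, and was made by Agrobacterium-mediated transformation. Wild type (WT) carries neither change, and the labels do not name its accession. The labels name 1 mutant stock and 1 transformed line, so other alleles or insertions were not compared. Total RNA came from whole seedlings, 9 days old by the extraction protocol, although the growth protocol gives 10 to 14 days on soil or on plates with glucose.

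IQD proteins carry the plant-specific IQ67 domain, whose IQ motifs bind calmodulin, the calcium sensor. Many of them sit on microtubules or at the plasma membrane and act there as scaffolds that shape cells. TRM proteins carry a short motif that binds TON1, and several bring TON1 and a PP2A phosphatase to microtubules, as the TTP complex. That complex organises the cortical microtubules and the preprophase band, the ring of microtubules that marks the future division plane of a plant cell.

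The arrays resembled each other closely, with correlations between 0.9918 and 0.9976 over all probe sets and array medians between 7.826 and 7.873. The values were read as log2 values, and every difference below is on that scale, so that 1.0 is a 2-fold change. No probe set is paired with JMJ24, so the targeted gene was not checked. Within genotypes, arrays with the same replicate number deviated together for number 1 in particular. The correlation of deviations was 0.438 between jmj24 1 and WT 1, 0.418 between 35S::JMJ24 1 and WT 1, and 0.427 between jmj24 1 and 35S::JMJ24 1. Named differences of 0.1 or more are therefore also given without the 3 arrays numbered 1 where that moved them by more than 1.5 times. In whole seedlings, fewer cells of a type and less RNA per cell cannot be told apart.

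Most of the analysed loci of both families gave a signal above background. The brightest of 27 probe sets for Bacillus genes, which plants lack, had a mean of 5.802 and served as the mark of background. Of the 15 IQD loci 13 lay above it (86.7%), as did 10 of the 14 TRM loci (71.4%), against 73.9% of all 22746 tested probe sets. The 7 loci below the mark were IQD15, IQD27, TRM23, TRM24, TRM25, TRM33 and TRM82, and differences among such dim values are uncertain. Within genotypes the spread (pooled SD) of the 30 loci had a median of 0.124, from 0.03 for TRM18 to 0.337 for IQD27, and the median over all probe sets was 0.117.

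**Figure D1:**
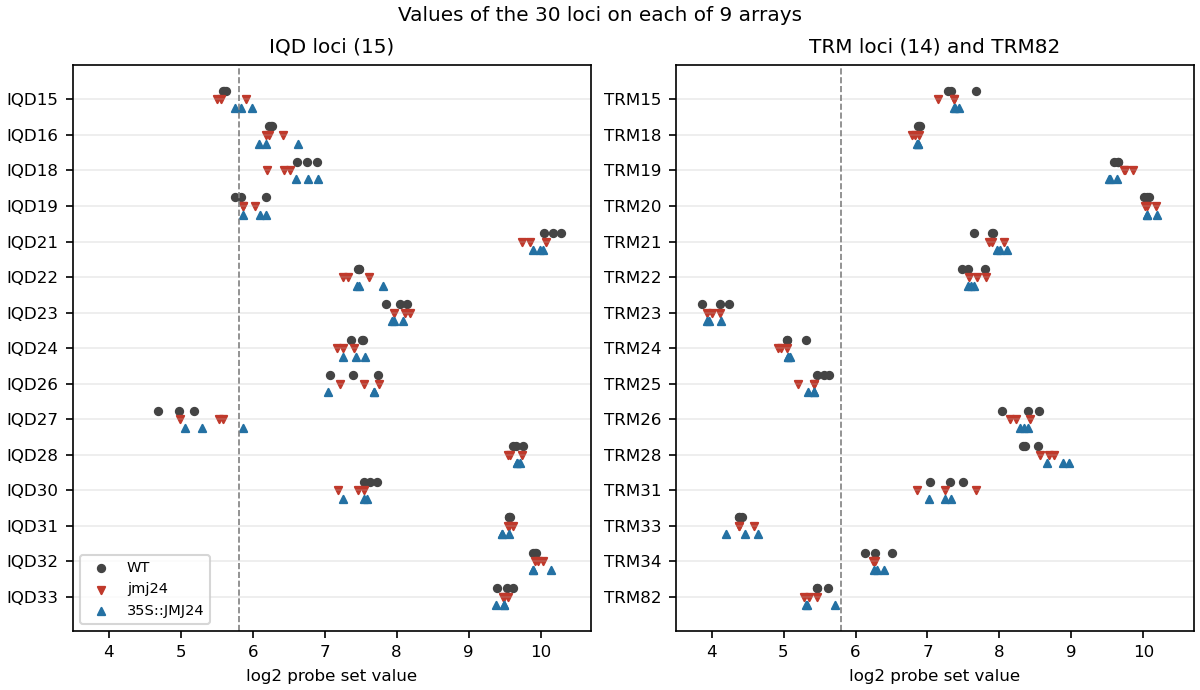
Log2 value of each IQD and TRM locus (rows) on each of the 9 arrays (points), with WT as dark circles, jmj24 as red triangles pointing down and 35S::JMJ24 as blue triangles pointing up. The dashed line is the background mark at 5.802. The 3 genotypes lie close together at most loci, 23 loci lie above the mark in their mean and 7 lie below it.

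The jmj24 mutant was compared with WT to ask which transcripts need a working JMJ24. None of the 15 IQD or 14 TRM loci, nor TRM82, passed the test in the mutant. TRM28 and TRM19 had higher values in all 3 mutant arrays than in any WT array, and IQD18 and TRM25 had lower ones. The median difference was -0.001 over the IQD loci, with 7 higher and 8 lower, and -0.035 over the TRM loci, with 6 higher and 8 lower. The median over all tested probe sets was 0.006, with 47.9% lower. By limma's moderated test with Benjamini-Hochberg adjustment, 259 of the 22746 probe sets passed an adjusted p of 0.05, which is 1.14%. Against such a share, 0 of 30 is not a result about these families. The smallest adjusted p among the 30 was 0.203, for IQD18. At an unadjusted p under 0.05, 2 loci were higher (TRM19 and TRM28, 6.67% against 5.46% of all probe sets) and 3 were lower (IQD18, IQD21 and TRM25, 10.0% against 6.27%). The 2 loci without overlap on the higher side compare with 7.49% of all probe sets, and the 2 on the lower side with 8.47%.

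The 35S::JMJ24 line was compared with the same WT arrays to ask which transcripts respond to extra JMJ24. Again 0 of the 30 loci passed, beside 4 of all probe sets (0.0176%). TRM28, TRM21 and the dim IQD15 had higher values in all 3 arrays of the line than in any WT array, while IQD21 and the dim TRM25 had lower ones. The median difference was 0.007 over the IQD loci, with 9 higher and 6 lower, and -0.012 over the TRM loci, with 6 higher and 8 lower. The median of all probe sets was 0.02, with 42.9% lower. The smallest adjusted p was 0.388, for TRM28. At an unadjusted p under 0.05, 3 loci were higher (IQD15, TRM21 and TRM28, 10.0% against 4.98% of all probe sets), and 0 were lower, against 2.45%. Loci without overlap numbered 3 on the higher side, where the share of all probe sets was 7.25%, and 2 on the lower side, where it was 4.48%.

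The direct comparison of jmj24 with 35S::JMJ24 asks where loss and gain of JMJ24 part, and it shares its arrays with both comparisons above. Here too 0 of the 30 loci passed, against 56 of all probe sets (0.246%). The median difference was -0.063 over the IQD loci, with 11 of 15 lower in the mutant, and -0.042 over the TRM loci, with 9 of 14 lower, while 57.0% of all probe sets were lower. TRM19 was the only member higher at an unadjusted p under 0.05 (3.33% against 1.8%), and IQD18 the only one lower (3.33% against 4.53%). Values did not overlap for TRM19 on the higher side, where the background share was 3.02%, and for IQD18 and TRM24 on the lower side, where it was 7.14%. In the moderated F test over the 3 genotypes, 161 of all probe sets passed (0.708%) and 0 members did. An unadjusted p under 0.05 in that test was reached by 4 members, namely TRM28, IQD18, IQD21 and TRM19, and by 2152 of all probe sets. The smallest adjusted p of a member in it was 0.194, for TRM28.

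The intervals give how large a difference in probe set value could have been missed, given only the spread among these 9 arrays. For the 7 loci below the background mark they do not limit the change of the transcript, because such values carry little signal. The 95% interval of a member's difference had a median half-width of 0.217. In none of the 3 comparisons did the interval of any of the 30 loci reach a 2-fold difference in either direction. A 1.5-fold difference (0.585) lay within the interval of IQD18, IQD26 and IQD27 in the mutant against WT. In 35S::JMJ24 against WT it lay within those of IQD27 and TRM28, and in the direct comparison within that of IQD18. For the remaining loci, both intervals against WT ended short of 1.5-fold.

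**Figure D2:**
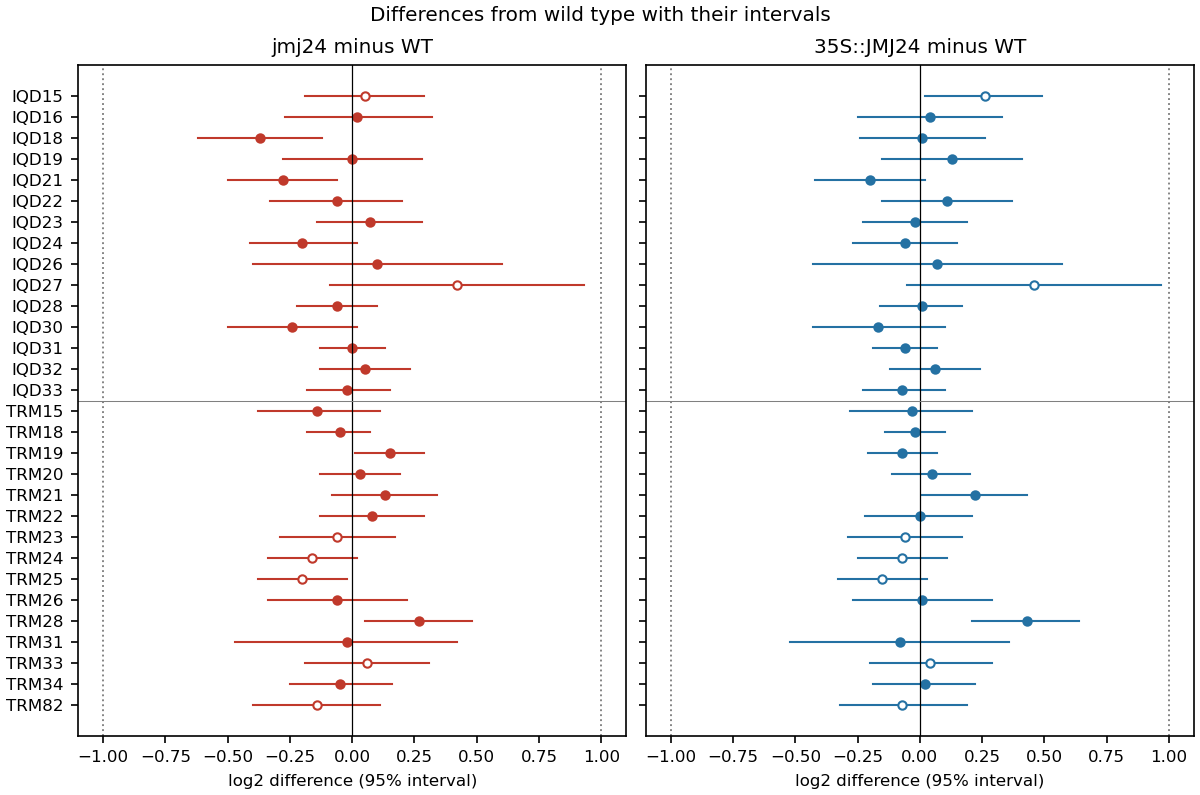
Log2 difference of each locus from WT (points) with its 95% interval (lines), for jmj24 on the left and 35S::JMJ24 on the right, where open points are loci below the background mark and dotted lines mark a 2-fold difference. No interval reaches the dotted lines, the points furthest from 0 are those of the dim IQD27 and of TRM28 (0.43) on the right, and IQD18 (-0.37) is the lowest on the left.

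Among the IQD loci, IQD18 (AT1G01110) stood lowest in the mutant relative to WT. Its log2 values were 6.89, 6.62 and 6.76 in WT, 6.20, 6.43 and 6.52 in jmj24, and 6.77, 6.91 and 6.60 in 35S::JMJ24. All 3 mutant arrays lay below all arrays of WT and of 35S::JMJ24, and the latter genotypes overlapped. The means were 6.75 ± 0.132 in WT, 6.38 ± 0.163 in jmj24 and 6.76 ± 0.156 in 35S::JMJ24 (SD, n = 3). The mutant differed from WT by -0.37 (SE 0.111, 95% interval -0.62 to -0.12, limma adjusted p = 0.203) and from 35S::JMJ24 by -0.38 (interval -0.63 to -0.13, adjusted p = 0.432). Neither passed. The difference from WT was -0.28 without jmj24 1, the lowest array, and -0.22 without all arrays numbered 1. 35S::JMJ24 differed from WT by 0.01.

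IQD21 (AT3G49260) tended lower in both lines. It measured 10.29, 10.17 and 10.05 in WT, 10.07, 9.74 and 9.85 in jmj24, and 9.99, 10.03 and 9.89 in 35S::JMJ24. WT 3 lay below jmj24 1, so these genotypes overlapped, whereas every 35S::JMJ24 array lay below every WT array. The differences from WT were -0.28 in the mutant (interval -0.50 to -0.06, limma adjusted p = 0.282) and -0.20 in 35S::JMJ24 (interval -0.42 to 0.02, adjusted p = 0.677). Both comparisons use the same WT arrays, of which WT 1 was the highest. IQD30 (AT1G18840) gave 7.73, 7.63 and 7.54 in WT, 7.46, 7.18 and 7.54 in jmj24, and 7.59, 7.55 and 7.26 in 35S::JMJ24. Its lowest values were single arrays, jmj24 2 and 35S::JMJ24 3, and both lines overlapped WT. The differences were -0.24 in jmj24 (interval -0.50 to 0.02, adjusted p = 0.472) and -0.17 in 35S::JMJ24, which became -0.13 without jmj24 2 and -0.06 without 35S::JMJ24 3. IQD24 (AT5G07240) gave 7.52, 7.53 and 7.37 in WT, 7.40, 7.17 and 7.26 in jmj24, and 7.56, 7.43 and 7.26 in 35S::JMJ24. Its mutant values overlapped WT only through jmj24 1 and WT 3, and the difference was -0.20 (interval -0.41 to 0.02, adjusted p = 0.464), beside -0.06 in 35S::JMJ24.

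**Figure D3:**
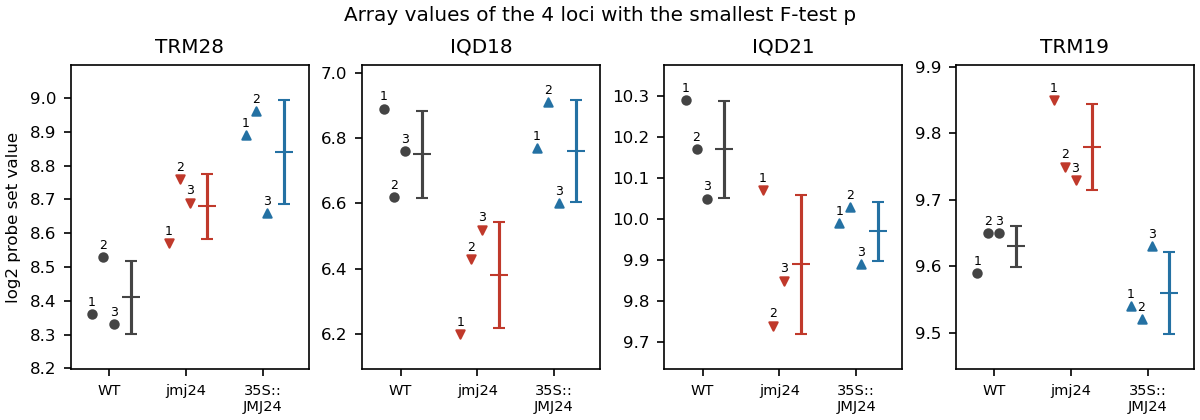
Log2 values of TRM28, IQD18, IQD21 and TRM19, the 4 loci with the smallest p in the F test over genotypes, on each array (points, numbered by replicate) with the mean and SD of the 3 arrays (bars). Each panel has its own axis. For IQD18 the 3 jmj24 arrays lie below all others, and for TRM28 the 3 WT arrays lie below all others.

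The largest IQD differences upward belonged to the dim IQD27 (AT1G51960), which was also the most variable of the 30 loci. It read 4.68, 4.97 and 5.19 in WT, 4.99, 5.58 and 5.53 in jmj24, and 5.86, 5.29 and 5.06 in 35S::JMJ24. Both lines overlapped WT, and 35S::JMJ24 1 was the only array above the background mark. The differences were 0.42 in jmj24 (interval -0.09 to 0.93, limma adjusted p = 0.516) and 0.46 in 35S::JMJ24 (interval -0.05 to 0.97, adjusted p = 0.677). The latter was 0.23 without 35S::JMJ24 1 and 0.10 without the arrays numbered 1. IQD15 (AT3G49380), also dim, read 5.58, 5.60 and 5.63 in WT, 5.56, 5.51 and 5.90 in jmj24, and 5.83, 5.99 and 5.76 in 35S::JMJ24. The 35S::JMJ24 arrays lay above all WT arrays, by 0.26 (interval 0.02 to 0.49, adjusted p = 0.645). The jmj24 arrays overlapped WT, at 0.05, and differed from 35S::JMJ24 by -0.21.

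Other IQD loci lay closer to WT. IQD28 (AT1G14380) showed 9.66, 9.62 and 9.76 in WT, 9.55, 9.57 and 9.74 in jmj24, and 9.67, 9.71 and 9.67 in 35S::JMJ24. All genotypes overlapped there, with differences of -0.06 in jmj24 and 0.01 in 35S::JMJ24. IQD31 (AT1G74690) was among the steadiest, with 9.56, 9.57 and 9.56 in WT, 9.56, 9.54 and 9.61 in jmj24, and 9.56, 9.47 and 9.47 in 35S::JMJ24. Its interval against WT ran from -0.13 to 0.13 in jmj24 and from -0.19 to 0.07 in 35S::JMJ24, among the narrowest of the family. IQD19 (AT4G14750), close to the background mark, showed 6.19, 5.83 and 5.75 in WT, 5.86, 5.87 and 6.03 in jmj24, and 6.18, 6.10 and 5.87 in 35S::JMJ24. The difference of 0.13 in 35S::JMJ24 (interval -0.15 to 0.41) was 0.26 without WT 1, 0.04 without WT 3 and 0.20 without the arrays numbered 1. Its size thus depended on the arrays included. IQD22 (AT4G23060) had nearly equal WT values of 7.46, 7.47 and 7.47, with 7.26, 7.32 and 7.62 in jmj24 and 7.45, 7.81 and 7.47 in 35S::JMJ24. The mutant differed from 35S::JMJ24 by -0.17 (interval -0.44 to 0.09, limma adjusted p = 0.899), or by -0.06 without 35S::JMJ24 2. The 8 IQD loci outside the smallest p-values in the mutant (IQD15, IQD16, IQD19, IQD22, IQD23, IQD31, IQD32 and IQD33) differed from WT by -0.06 to 0.07. The 9 such loci in 35S::JMJ24 (IQD16, IQD18, IQD22, IQD23, IQD24, IQD26, IQD28, IQD32 and IQD33) differed by -0.07 to 0.11.

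TRM28 (AT5G03670) had the smallest F-test p of the 30 loci, and its values were higher in both lines. It measured 8.36, 8.53 and 8.33 in WT, 8.57, 8.76 and 8.69 in jmj24, and 8.89, 8.96 and 8.66 in 35S::JMJ24. Every array of both lines lay above every WT array, and jmj24 overlapped 35S::JMJ24 only through 35S::JMJ24 3. The means were 8.41 ± 0.108 in WT, 8.68 ± 0.0963 in jmj24 and 8.84 ± 0.153 in 35S::JMJ24 (SD, n = 3). The differences from WT were 0.27 in jmj24 (SE 0.095, interval 0.05 to 0.48, limma adjusted p = 0.302) and 0.43 in 35S::JMJ24 (interval 0.21 to 0.64, adjusted p = 0.388). Neither passed over 22746 probe sets, and the lines share their WT arrays, so the second is no independent repeat of the first. Leaving out single arrays gave 0.22 to 0.33 in jmj24 and 0.37 to 0.51 in 35S::JMJ24. The mutant lay below 35S::JMJ24 by 0.16, or by 0.08 without the arrays numbered 1, and the interval of that difference, -0.37 to 0.05, includes 0.

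Among the TRM loci, TRM19 (AT3G53540) had the largest difference between the mutant and the overexpressing line. It measured 9.59, 9.65 and 9.65 in WT, 9.85, 9.75 and 9.73 in jmj24, and 9.54, 9.52 and 9.63 in 35S::JMJ24. All mutant arrays lay above all others, and 35S::JMJ24 overlapped WT. The mutant differed from 35S::JMJ24 by 0.22 (interval 0.08 to 0.36, limma adjusted p = 0.418) and from WT by 0.15 (interval 0.01 to 0.29, adjusted p = 0.39), with 35S::JMJ24 at -0.07 from WT. Without the arrays numbered 1 the difference between mutant and WT was 0.10.

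TRM21 (AT5G43880) gave 7.91, 7.89 and 7.64 in WT, 7.90, 8.07 and 7.86 in jmj24, and 8.11, 8.01 and 7.97 in 35S::JMJ24. The 35S::JMJ24 arrays were above all WT arrays, and WT 3 was the lowest of the 9. The differences were 0.22 in 35S::JMJ24 (interval 0.01 to 0.43, limma adjusted p = 0.649) and 0.13 in jmj24 (adjusted p = 0.623), or 0.13 and 0.04 without WT 3. Without the arrays numbered 1 the difference in jmj24 was 0.20. The dim TRM25 (AT5G62170) gave 5.46, 5.63 and 5.56 in WT, 5.42, 5.42 and 5.20 in jmj24, and 5.42, 5.34 and 5.42 in 35S::JMJ24. Every array of both lines lay below every WT array, and all 9 lay below the background mark. The differences were -0.20 in jmj24 (interval -0.38 to -0.02, adjusted p = 0.362) and -0.15 in 35S::JMJ24 (interval -0.33 to 0.03, adjusted p = 0.685).

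TRM24 (AT5G51850), another dim locus, gave 5.31, 5.05 and 5.05 in WT, 4.96, 5.05 and 4.93 in jmj24, and 5.06, 5.09 and 5.06 in 35S::JMJ24. WT 1 stood above the other 8 arrays, and the mutant lay just below 35S::JMJ24 without overlap, by 0.09. The mutant differed from WT by -0.16 (limma adjusted p = 0.492), or by -0.07 without WT 1 and -0.06 without the arrays numbered 1. 35S::JMJ24 differed from WT by -0.07, or by 0.02 without WT 1. TRM15 (AT4G00440) likewise had its highest value on WT 1, with 7.67, 7.33 and 7.29 in WT, 7.37, 7.14 and 7.37 in jmj24, and 7.37, 7.44 and 7.38 in 35S::JMJ24. All genotypes overlapped, and the mutant's difference of -0.14 (interval -0.38 to 0.11, adjusted p = 0.668) shrank to -0.02 without that array and was -0.06 without the arrays numbered 1. TRM20 (AT4G28760) gave 10.08, 10.01 and 10.05 in WT, 10.05, 10.02 and 10.18 in jmj24, and 10.05, 10.19 and 10.05 in 35S::JMJ24, with differences of 0.03 and 0.05 and overlap throughout. The 8 TRM loci outside the smallest p-values in the mutant (TRM18, TRM20, TRM22, TRM23, TRM26, TRM31, TRM33 and TRM34) differed from WT by -0.06 to 0.08. In 35S::JMJ24, TRM15, TRM18, TRM22, TRM23, TRM26, TRM33 and TRM34 differed by -0.06 to 0.04.

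TRM82 (AT1G03110) entered by its symbol alone. The gene table gives it the synonym tRNA modification 82, and in yeast Trm82 is the partner of the tRNA methyltransferase Trm8. It read 5.62, 5.46 and 5.46 in WT, 5.29, 5.36 and 5.47 in jmj24, and 5.72, 5.33 and 5.31 in 35S::JMJ24, all below the background mark. The genotypes overlapped, with differences from WT of -0.14 in jmj24 (limma adjusted p = 0.665) and -0.07 in 35S::JMJ24. Without the arrays numbered 1 the difference in jmj24 was -0.05.

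At IQD26 and TRM31, array 1 stood further from the other arrays of its genotype than either line stood from WT in its mean. IQD26 (AT3G16490) read 7.08, 7.39 and 7.74 in WT, 7.21, 7.76 and 7.54 in jmj24, and 7.04, 7.68 and 7.69 in 35S::JMJ24. The array numbered 1 was the lowest in each genotype, below the mean of the other arrays by 0.49, 0.44 and 0.64 in that order of genotypes. The differences between genotypes were only 0.10 in jmj24 (interval -0.40 to 0.60) and 0.07 in 35S::JMJ24, and that of jmj24 was -0.06 without WT 1. TRM31 (AT5G58630) also had its lowest value on array 1 in each genotype, with 7.03, 7.31 and 7.50 in WT, 6.85, 7.67 and 7.24 in jmj24, and 7.02, 7.33 and 7.24 in 35S::JMJ24. Its array 1 lay below the mean of the other arrays by 0.38, 0.61 and 0.27, beside differences from WT of -0.02 in jmj24 and -0.08 in 35S::JMJ24. IQD22 was the third locus with its lowest value on array 1 in every genotype, and no member had its highest there. These 3 of 30 (10.0%) compare with 11.3% of all probe sets, and 8.7% of all probe sets had the highest value on array 1 throughout, so the pattern is not particular to the families. The labels do not say what a replicate number stands for.

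**Figure D4:**
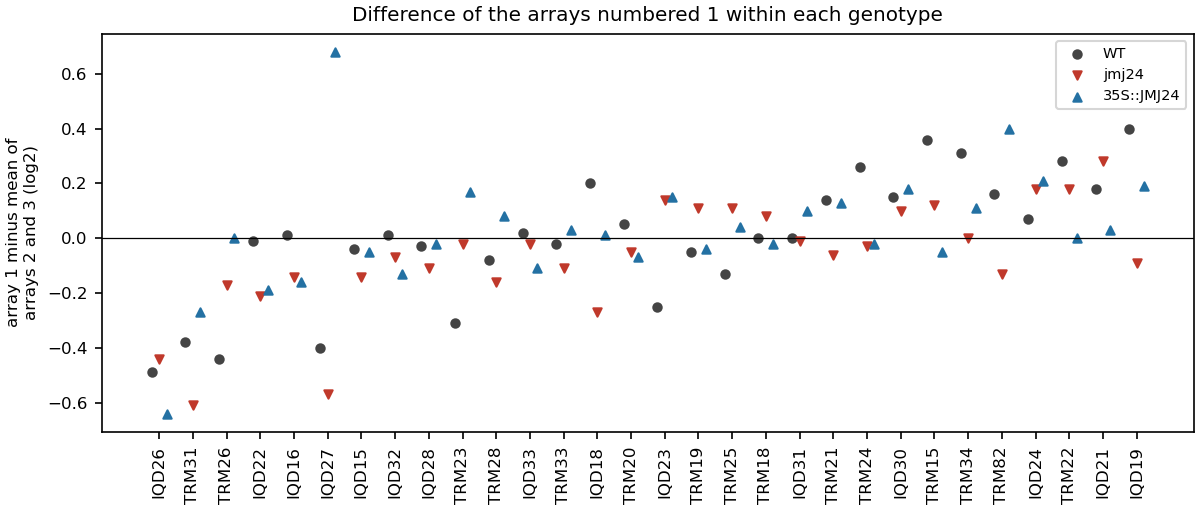
Difference of the array numbered 1 from the mean of arrays 2 and 3 of the same genotype (log2, vertical axis) for each of the 30 loci, ordered by the mean over genotypes, with 1 point per genotype. IQD26 and TRM31 at the left lie below 0 in all 3 genotypes, while the dim IQD27 has WT and jmj24 below 0 and 35S::JMJ24 above it.

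Across a family, the largest shifts of single arrays were wider than those over all probe sets. A median over 15 or 14 loci scatters more than one over 22746 probe sets, so the wider shifts are not a result about the families. Relative to each locus's mean over 9 arrays, the IQD loci had a median of -0.091 on jmj24 1 and -0.087 on jmj24 2, with 4 and 5 of 15 above their mean, but 0.065 on jmj24 3, with 10 of 15 above. On 35S::JMJ24 2 the median was 0.056 for IQD loci, with 12 of 15 above, and 0.047 for TRM loci, with 11 of 14 above, while all probe sets had 0.024 on that array. On 35S::JMJ24 3 the IQD median was -0.077, with 3 of 15 above, while all probe sets had 0.001. Within both jmj24 and 35S::JMJ24, the IQD medians of single arrays were thus partly negative and partly positive. Leaving out a single array moved the IQD median of the mutant against 35S::JMJ24 to between -0.128 and -0.026.

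The partners of both families were measured in part. Here and below, a listed gene counts as measured only where a probe set names it alone, and 8730 tested probe sets are unnamed. Of 17 genes listed as calmodulin or calmodulin-like, the calcium sensors that bind such motifs, 7 were measured. All 7 were calmodulin-like genes, no calmodulin itself was measured under a name, and 0 passed in either comparison with WT. Their median difference was 0.043 in jmj24 and 0.079 in 35S::JMJ24. CML43 read 7.86, 8.28 and 8.24 in WT, 8.38, 8.43 and 8.38 in jmj24, and 8.32, 8.36 and 8.32 in 35S::JMJ24, so that all WT arrays lay below both lines, WT 1 furthest. Its difference in jmj24 was 0.27 (limma adjusted p = 0.332), or 0.14 without WT 1 and 0.15 without the arrays numbered 1. CML38 had the list's largest difference upward in jmj24, 0.41 without overlap (adjusted p = 0.506), and 0.28 with overlap in 35S::JMJ24 (adjusted p = 0.772). Without WT 1, its lowest array at 8.28, these were 0.16 and 0.02, and without the arrays numbered 1 they were 0.23 and 0.19. CML41 lay the other way in jmj24, at -0.37 with overlap (adjusted p = 0.541), or -0.22 without the arrays numbered 1, and at -0.07 in 35S::JMJ24. CML37 had all 3 arrays of 35S::JMJ24 above WT, by 0.26 (adjusted p = 0.621), and a difference of 0.00 in jmj24. Of 13 genes listed for the TTP complex and the microtubule-severing katanin, 4 were measured and 0 passed. TON1B, the TRM partner itself, differed by -0.07 in jmj24 (interval -0.25 to 0.11) and -0.06 in 35S::JMJ24. AT1G11160, dim and without a symbol in the gene table, differed by 0.37 in jmj24 (adjusted p = 0.258) and 0.35 in 35S::JMJ24 (adjusted p = 0.621). With the replicate number as a block its mutant difference had an adjusted p of 0.0436. The 18 ovate family genes and the 6 genes for kinesin light chain-related proteins and cellulose synthase linkers had 0 measured under a name.

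Microtubule subunits and motors stayed near WT. Of 17 tubulins 7 were measured and 0 passed, with medians of -0.056 in jmj24 and -0.036 in 35S::JMJ24 and a range of -0.19 to 0.10 over both. TUB1, a beta-tubulin, was the lowest in jmj24, at -0.19 (limma adjusted p = 0.422). Of 21 kinesins 3 were measured and 0 passed, with differences of -0.12 to 0.04 over both comparisons. Of 49 other microtubule-associated proteins 6 were measured and 0 passed, with medians of -0.086 in jmj24 and 0.034 in 35S::JMJ24. All 6 lay lower in jmj24 than in 35S::JMJ24, by differences of -0.34 to -0.03 with 1 at an unadjusted p under 0.05, where 57.0% of all probe sets were lower.

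Among the partner and microtubule lists, the widest differences were those of SP1L5 and SP1L2 in jmj24. Both are SPIRAL1-like genes, whose relative SPIRAL1 sits at growing microtubule ends and keeps cell growth straight. SPIRAL1 itself (SPR1) differed from WT by -0.09 in jmj24 and 0.06 in 35S::JMJ24. SP1L5 (AT4G23496) read 6.66, 6.53 and 6.42 in WT, 6.25, 5.73 and 5.73 in jmj24, and 6.39, 6.28 and 6.06 in 35S::JMJ24. Every array of both lines lay below every WT array, and jmj24 2 and 3 were under the background mark. The mutant differed by -0.64 (interval -0.97 to -0.30, limma adjusted p = 0.0966) and 35S::JMJ24 by -0.29 (adjusted p = 0.681). That mutant difference passed with array weights (adjusted p = 0.032), with the replicate block (0.0131) and without jmj24 1 (-0.81, adjusted p = 0.0171), although not in the fit of all 9 arrays without weights or block. SP1L2 (AT1G69230) read 8.11, 8.14 and 8.04 in WT, 7.43, 7.97 and 7.50 in jmj24, and 7.66, 7.98 and 7.78 in 35S::JMJ24. Its values were lower in both lines without overlap, by -0.46 in jmj24 (adjusted p = 0.205) and -0.29 in 35S::JMJ24 (adjusted p = 0.674), and without jmj24 2 the mutant difference of -0.63 had an adjusted p of 0.0326. SP1L4 (AT5G15600) went the other way, with 9.14, 9.47 and 9.40 in WT, 9.59, 9.75 and 9.60 in jmj24, and 9.62, 9.83 and 9.57 in 35S::JMJ24. Both lines lay above all WT arrays, by 0.31 (adjusted p = 0.267) and 0.34 (adjusted p = 0.539). SP1L3, the remaining measured SP1L gene, differed by -0.08 and 0.01.

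**Figure D5:**
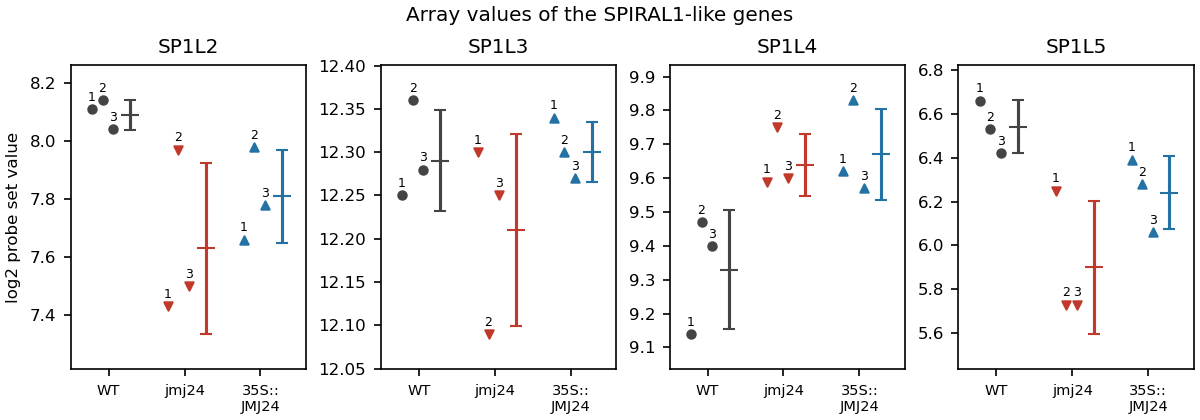
Log2 values of SP1L2, SP1L3, SP1L4 and SP1L5 on each array (points, numbered by replicate) with the mean and SD of the 3 arrays of each genotype (bars). Each panel has its own axis. WT lies above both lines for SP1L2 and SP1L5, below both for SP1L4, and overlaps both for SP1L3.

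Tissue markers were read beside these values. Of 43 green tissue genes 7 were measured, 6 of them between 13.17 and 14.32 on every array, and none differed from WT by more than 0.09. All 7 were lower than WT in both lines, with medians of -0.046 in jmj24 and -0.039 in 35S::JMJ24, and 0 passed. Of all probe sets 47.9% were lower in jmj24 and 42.9% in 35S::JMJ24. Of 37 genes of dividing cells 3 were measured, the Aurora kinases AUR1, AUR2 and AUR3, at -0.13, -0.06 and 0.07 in jmj24 and at -0.06, -0.01 and -0.06 in 35S::JMJ24. Of 20 root genes 2 were measured, both expansins of root hairs. EXPA18 read 6.95, 7.73 and 7.61 in WT, 7.74 to 7.99 in jmj24 and 7.83 to 7.94 in 35S::JMJ24, and EXPA7 read 5.53, 6.16 and 5.96 in WT, 6.16 to 6.24 in jmj24 and 6.16 to 6.38 in 35S::JMJ24. WT 1 was the lowest for both, and EXPA18 differed from WT by 0.46 in jmj24 and 0.47 in 35S::JMJ24, or by 0.23 in each without WT 1, with 0 of the 2 passing. Without the arrays numbered 1 these differences of EXPA18 were 0.30 and 0.22. TRM28 and SP1L4 also had their higher values in both lines, and the part of tissue make-up in those differences was not tested. The seed storage list had 2 of 13 measured (OLEO3 and LEA4-5), at 0.02 and -0.02 in jmj24 and at 0.19 and 0.12 in 35S::JMJ24, with 0 passing, and the flower and pollen list had 0 of 11.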

How the data were processed

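The deposited table holds 22810 probe sets on 9 arrays. The authors made these values with affy, per the submitters' processing notes; the version and the summary method were not named there. No source names the scale, and the deposited values were read as log2. After 64 controls were removed, 22746 probe sets were tested. Of these, 13513 name 1 gene in the array annotation, with symbols renewed from RefSeq (TAIR10.1), 503 name several and 8730 are unnamed. The array's build is not given, so no coordinates are printed.

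limma 3.58.1 in R 4.3.3 fitted 1 mean per genotype to all 9 arrays (6 residual and 3.335 prior degrees of freedom), with two-sided tests, Benjamini-Hochberg adjustment over all 22746 probe sets and a threshold of 0.05. The steps were tested on simulated data with independent noise on each array, which lacks the shared deviations of same-numbered arrays seen here. Named members were, per family, the 6 with the smallest p in each comparison with WT, the 3 smallest in jmj24 against 35S::JMJ24, and the largest differences above the background mark. The members and lists were chosen with earlier results of these data known. No source says whether replicates were grown separately, and the p-values cover only the spread among these 9 arrays, possibly a technical one.

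Same-numbered arrays of jmj24 and 35S::JMJ24 deviated together (correlations 0.427, 0.173 and 0.171), which pairs them on the evidence of the data alone, and the replicate block changed no member's call. Alternatives covered array weights, rescaling, filters, the arrays fitted and left-out arrays.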

Additional observations from a re-analysis of the deposited data

How the results depend on the processing

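No member passed in any comparison, in the F test or under any alternative run. Of 525 values of named members under an alternative, all 525 kept their call and 6 changed sign at 2 decimals, while TRM20 in 35S::JMJ24 came to 0.00 without 35S::JMJ24 2. The 525 include settings that cannot move a difference, such as the replicate block or leaving out an array of the genotype not compared. The 6 were IQD26 in jmj24, to -0.06 without WT 1 and -0.03 without jmj24 2, TRM24 in 35S::JMJ24, to 0.02 without WT 1 and 0.02 without the arrays numbered 1, and TRM31 in 35S::JMJ24, to 0.01 without 35S::JMJ24 1 and 0.03 without WT 3. Without a single array, these differences ran from -0.06 to 0.27, from -0.11 to 0.02 and from -0.20 to 0.03. The probe sets that passed in jmj24 numbered 146 with only the 2 groups fitted, 641 with array weights, 607 with the replicate block, 53 without the arrays numbered 1, and 124 (without WT 2) to 229 without a single array, with any WT array, jmj24 2 or jmj24 3 left out moving the count by over 1.5 times. In 35S::JMJ24 they numbered 8 with array weights, 1 without the arrays numbered 1, and 2 to 4 without a single array. In jmj24 against 35S::JMJ24 they numbered 19 with 2 groups, 2 without the arrays numbered 1, and 14 to 44 without a single array.

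The TRM median in jmj24 was 0.006 with array weights, 0.13 without the dimmer 50% of probe sets, 0.055 without the arrays numbered 1, 0.004 above the mark only, and -0.035 to 0.028 without a single array. In 35S::JMJ24 it was 0.011, 0.046 and 0.024 under the first 3 of these, and -0.034 to 0.027 without a single array. Against 35S::JMJ24, the mutant's TRM median was -0.07 without the dimmer probe sets, -0.014 with median scaling, -0.016 after quantile normalization, and -0.065 to -0.037 without a single array. The IQD median there was 0.021 without the dimmer probe sets and -0.128 to -0.026 without a single array. The cause of these shifts was not tested. With 3 same-numbered arrays in each genotype, the replicate block cannot change a member's difference, only its p-value. The pairing of jmj24 and 35S::JMJ24 with WT by replicate number was uneven. Correlations were 0.438 and 0.418 for number 1, 0.303 and 0.207 for number 3, but only 0.0577 and 0.0143 for number 2. WT 3 also had correlations of 0.271 with jmj24 2 and 0.235 with 35S::JMJ24 2. The 3 arrays per genotype limit the precision, and values under the background mark carry little signal.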
